A study of Ulmus minor with 54 samples.

Results

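The 9 libraries described here are RNA-seq of untreated leaves of the field elm, Ulmus minor, harvested at 1, 6 and 24 h, with 3 libraries at each hour. They were chosen by their sample titles and are 9 of the 54 libraries of a series on egg deposition and larval feeding by the elm leaf beetle. All trees were wild type, came from 1 clonal in vitro culture and grew in a greenhouse. The leaves called CC here carried no simulated eggs and no larvae, and were taken 7 days after the experiment began, 1, 6 or 24 h after larvae were set on other leaves. They were not scratched, and the labels name no mock treatment.

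A pair of other unfed groups was set beside them, each with 3 libraries at each of the same hours. PC leaves had a strip of epidermis scratched off and covered with beetle oviduct secretion 7 days before harvest, and carried no larvae. C leaves belonged to the priming set, had no treatment at all, and were taken 1, 6 or 24 h after the experiment began. PT leaves (secretion, then larvae), CT leaves (larvae only) and P leaves of the priming set (secretion only) appear where the CC transcripts were followed into them. The labels give no clock time for any harvest, so the hour after the start and the time of day cannot be told apart. Whether libraries of 1 hour stem from different trees is not stated either. All p-values therefore rest on the spread between libraries, which may be technical.

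Plant leaves are known to change much of their RNA over a day. The circadian clock, an internal oscillator of genes that repress and activate each other in turn, sets some of these rhythms, and light, temperature and sugar status set others. Genes of photosynthesis, starch turnover and growth are well known to peak at set times of day, and wound and jasmonate defences are also known to be gated by the clock in Arabidopsis. In a time course after a treatment, untreated leaves taken at the same hours show how much of a difference between hours comes without the treatment. The deposited table identifies sequences by assembly number and not by gene, so transcripts are named here by those numbers and no function is given. For the same reason the labelled tissue could not be checked against leaf markers.

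The CC libraries held 30009061 to 69835039 counted reads, and 181733 to 209700 of the 237477 assembled sequences had at least 1 read. The 10 sequences with the most reads took 5.68% to 32.6% of a CC library, and this share was highest in CC 6 h replicate 1. A library outside CC, CT 24 h replicate 1, stood apart, with 80.3% of its reads in 10 sequences and reads in only 62026 sequences. It shared the fit from which the spread of the CC libraries was estimated. Counts without it are given for 6 h in CC and PC, for the difference between CC and C and for the CC lists in fed leaves. The CC replicates at 6 h carry the numbers 1, 3 and 4.

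Over 30178 transcripts (mean log2 CPM 1 or higher), the first principal component took 42.1% of the variance among the CC libraries and separated 6 h from the other hours. CPM scales the counts of each library to the same total, after TMM scaling. The 3 libraries of 6 h had scores of 55.6, 67.5 and 60.1. The other 6 libraries lay lower, and CC 24 h replicate 2 (8.16) and CC 1 h replicate 3 (-16.6) were the nearest to them. Rank correlations of CC libraries over all tested transcripts were 0.889 to 0.925 among the 6 h libraries and 0.889 to 0.926 between 24 h and 1 h libraries. Between 6 h and 1 h libraries they were 0.854 to 0.910, and between 6 h and 24 h libraries 0.862 to 0.925. Among the 1 h libraries they were 0.912 to 0.925, and among the 24 h libraries 0.904 to 0.927. Some single pairs of different hours were thus as alike as pairs of 1 hour. The medians were 0.924, 0.909 and 0.915 within 1, 6 and 24 h. They were lower between hours, at 0.879 (6 h and 1 h), 0.889 (6 h and 24 h) and 0.899 (24 h and 1 h).

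**Figure D1:**
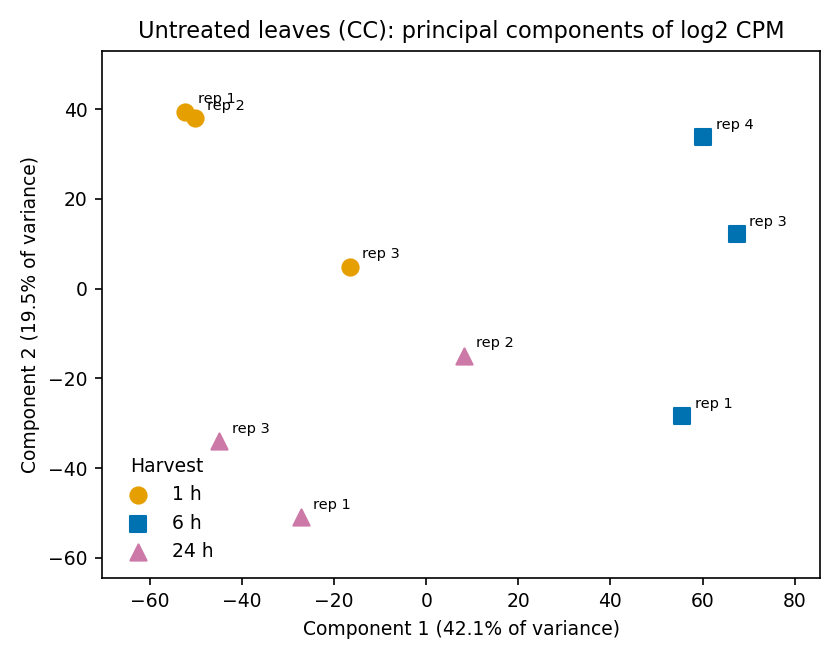
Principal components of log2 CPM in the 9 untreated CC libraries (30178 transcripts; 1 point per library, rep = replicate number). Component 1 (42.1% of variance, horizontal) has the 3 libraries of 6 h at 55.6 to 67.5 and all libraries of 1 and 24 h at or below 8.16; component 2 (19.5%, vertical) is drawn on its own scale.

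The hour of harvest was tested first as 6 h against 1 h and against 24 h. In CC leaves at 6 h, 1393 transcripts were higher and 2313 lower than at 1 h, together 2.51% of the 147417 tested (edgeR quasi-likelihood test on counts, Benjamini-Hochberg adjusted p of at most 0.05, no minimum fold). The median log2 fold change was 2.05 in those that rose and -1.80 in those that fell, and 721 and 936 of them changed at least 4-fold. Against 24 h, 348 transcripts were higher and 1125 lower at 6 h, or 0.999% of those tested, with medians of 1.97 and -1.85. Both comparisons use the same 3 libraries of 6 h, so their lists are not compared with each other.

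These counts moved with the libraries in the fit. Without CT 24 h replicate 1, 6599 transcripts were called against 1 h and 3640 against 24 h, and these held all 3706 and all 1473 of the main calls. Against 1 h, the count was 938 without CC 6 h replicate 3, 1593 without CC 6 h replicate 4 and 2454 without CC 6 h replicate 1, and 1637 and 1132 without CC 1 h replicates 1 and 2. Against 24 h, it was 267 without CC 6 h replicate 3, 313 without CC 6 h replicate 4, and 382 and 378 without CC 24 h replicates 1 and 3. In the fits given next, the higher calls fell by a larger factor than the lower ones. Against 24 h, 24 were higher and 358 lower without CC 24 h replicate 1, and 33 and 345 without CC 24 h replicate 3. They numbered 48 and 265 without CC 6 h replicate 4, 54 and 213 without CC 6 h replicate 3, and 161 and 874 with no filter on low counts. Against 1 h, 209 were higher and 923 lower without CC 1 h replicate 2, 375 and 1262 without CC 1 h replicate 1, and 816 and 1863 with no filter. DESeq2, with its own scaling, called 1624 higher and 2551 lower at 6 h than at 24 h, a larger part of them higher.

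C292183 and C208277 are the transcripts that rose with the smallest p against 1 h among called transcripts whose log2 CPM averaged 1 or more and whose groups did not overlap. C292183 had 7.28, 6.05 and 8.52 CPM in the 6 h libraries, against 0.118, 0.0404 and 0.253 CPM at 1 h and 0.471, 1.45 and 0.152 CPM at 24 h. Every 6 h library lay above every other CC library, and the 24 h libraries overlapped those of 1 h. Its log2 fold change was 5.63 ± 0.82 (SE) against 1 h, with an adjusted p of 0.000277 by edgeR, on 977 reads at 6 h and 24 at 1 h.

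C208277 had 4.52, 5.59 and 5.18 CPM at 6 h, against 0.945, 0.566 and 0.402 CPM at 1 h and 1.04, 1.98 and 1.24 CPM at 24 h. The 3 hours did not overlap, and 24 h lay between 1 h and 6 h. The log2 fold change was 3.02 ± 0.38 (SE) against 1 h and 1.85 ± 0.35 against 24 h, with edgeR adjusted p of 6.8e-05 and 0.00597. Between 24 h and 1 h the adjusted p of edgeR was 0.384, which did not pass.

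Of the transcripts that fell against 1 h, scaffold20972 and C289333 had the smallest p. For scaffold20972, the 6 h libraries had 11.7, 9.98 and 10.1 CPM, against 42.9, 56.1 and 53.8 CPM at 1 h and 41, 35.6 and 44.9 CPM at 24 h. All 6 h libraries were low, and the other hours overlapped. It fell by 2.26 ± 0.23 (SE) on the log2 scale against 1 h (edgeR adjusted p of 4.49e-06). C289333 averaged 0.991 ± 0.19 CPM at 6 h, against means of 4.73 ± 1.00 for 1 h and 4.19 ± 0.533 for 24 h (SD, 3 libraries each). Here too the libraries of 1 h and 24 h overlapped each other and not those of 6 h.

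Against 24 h, C531045 and scaffold24834 rose with the smallest p. C531045 had 5.55, 4.64 and 4.22 CPM at 6 h, against 1.03, 1.88 and 1.18 CPM at 24 h, and 3.21, 2.20 and 1.77 CPM at 1 h. The 24 h libraries overlapped the 1 h libraries at their upper end only. The log2 fold change was 1.82 ± 0.26 (SE) against 24 h (edgeR adjusted p of 0.000412).

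The level of scaffold24834 was 68.0, 129 and 150 CPM at 6 h, against 19.6, 24.9 and 27.4 CPM at 24 h and 30.8, 27.3 and 35 CPM at 1 h. CC 6 h replicate 1 was the lowest of its hour and still above all other CC libraries. The log2 fold change against 24 h was 2.27 ± 0.35 (SE; edgeR adjusted p of 0.000778). With a replicate block it was 1.96 and the edgeR adjusted p 0.0732, so that call was lost. The untreated leaves of the priming set gave a different value, described further on.

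C453875 and scaffold4699 fell with the smallest p against 24 h. For C453875, the libraries had 3.43, 2.73 and 3.40 CPM at 6 h, against 14.3, 11.5 and 12.2 CPM at 24 h and 10.4, 10.2 and 10.6 CPM at 1 h. The 3 hours were apart, with 24 h highest. It fell by 2.00 ± 0.20 (SE) on the log2 scale against 24 h (edgeR adjusted p of 4.49e-06). The level of scaffold4699 was 55.5 ± 1.70 CPM at 6 h, against 206 ± 32 for 24 h and 195 ± 16.9 for 1 h (SD, 3 libraries each). Its 6 h libraries spanned 54 to 57.3 CPM, far below the lowest other library at 170 CPM.

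**Figure D2:**
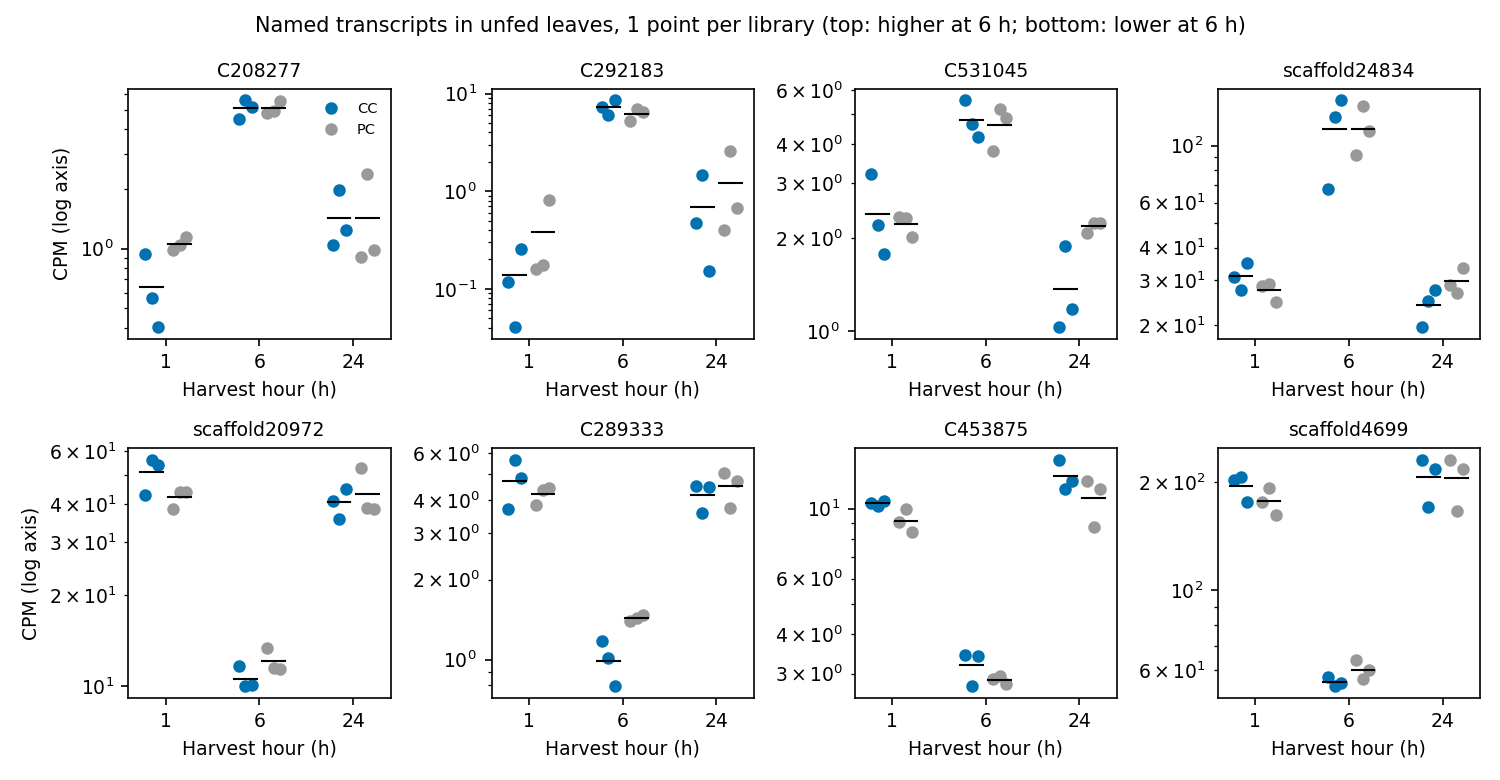
Levels of 8 named transcripts in unfed leaves at 1, 6 and 24 h (horizontal), in CPM on a log axis (vertical); 1 point per library, blue CC, grey PC, black bars the mean of 3 libraries. In the upper row all CC libraries of 6 h lie above all other CC libraries, as with scaffold24834 at 68.0 CPM or more; in the lower row they lie below, as with scaffold4699 at 57.3 CPM or less.

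The 24 h and 1 h harvests were then compared with each other. Of 147417 transcripts, 0 were called at 24 h against 1 h by edgeR (0%), while 10310 had a p of 0.05 or less before adjustment. DESeq2 called 466 (300 higher and 166 lower at 24 h), and edgeR fitted to the 9 CC libraries alone called 322 (225 higher and 97 lower), so this count differed with the tool and with the libraries fitted, and it was 0 in the fit of CC and PC. Without CC 1 h replicate 3 it was 3, and without CC 24 h replicate 3 it was 1.

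By the naming rule for a comparison without calls, the values of a transcript in each direction follow, neither of which passed. C177847 had 22.8, 19.5 and 19.5 CPM at 24 h, against 9.69, 7.72 and 9.31 CPM at 1 h, with 6 h between them at 13, 16 and 14.1 CPM. Its 3 hours did not overlap (log2 fold change 1.21 ± 0.22, SE; edgeR adjusted p of 0.0918). C465567 had 0.434, 0.384 and 0.273 CPM at 24 h, against 7.91, 8.21 and 2.52 CPM at 1 h, with CC 1 h replicate 3 the lowest of its hour (log2 fold change -4.05 ± 0.68, SE; edgeR adjusted p of 0.0623). At 6 h it had 1.06, 1.53 and 2.02 CPM, so the 6 h libraries again lay between the other hours.

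Taking 1 and 24 h together, 1897 transcripts were higher and 2404 lower at 6 h than the mean of both, or 2.92% of those tested. The median log2 fold change was 1.58 in the 1897 (quartiles 1.13 and 2.13) and -1.54 in the 2404 (quartiles -2.17 and -1.19), against 0.02 over all tested transcripts. At least 2-fold changes made up 1551 and 2122 of them, and at least 4-fold changes 560 and 691. Among the 1897, 3 had no read in any library of 1 or 24 h, and among the 2404, 34 had no read at 6 h. The medians were the same with these set to the bound that 3 reads over the group allow.

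Groups that did not overlap were common in these lists: all 3 libraries of 6 h lay above all 6 others in 1570 of the 1897, and below them in 2212 of the 2404. Among all tested transcripts 4.90% were so placed above and 5.46% below, and since the lists were chosen on these libraries, these shares are a description. The mean at 24 h was nearer to that at 1 h than to that at 6 h in 1829 of the 1897 (96.4%) and in 2273 of the 2404 (94.6%), against 55.7% of all tested. The choice of the lists on these libraries favours this placing as well. C292183 and C208277 again had the smallest p among named risers, and C453875 and C289333 among fallers, with log2 fold changes of 4.50 ± 0.58, 2.43 ± 0.29, -1.85 ± 0.18 and -2.16 ± 0.21 (SE).

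At 1 and 24 h the fallers held a larger part of the reads than the risers. Their summed share was 3.05% to 3.27% of a library at 6 h, against 6.29% to 8.23% over the 6 libraries of 1 and 24 h. The risers had 1.93% to 3.38% at 6 h, against 0.858% to 1.65% at the other hours, and CC 24 h replicate 2 was the highest of those. The mean log2 CPM over the 36 libraries of the set had a median of 0.24 in the risers and 1.03 in the fallers, against -1.04 over all tested transcripts. The share called rose with this level, to 3.05% higher and 5.67% lower in transcripts over 5 on the log2 CPM scale, against 0.779% and 0.522% in those under -1. Sequences named as scaffolds were 22.5% of the risers and 19.7% of the fallers, against 13.6% of all tested.

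The count of 4301 fell to 1144 without CC 6 h replicate 3, 1567 without CC 6 h replicate 4 and 2679 without CC 6 h replicate 1. It was 2609 without CC 1 h replicate 2, and 2557 and 2592 without CC 24 h replicates 1 and 3. It was 7476 without CT 24 h replicate 1, with all 4301 among them, and 7495 by DESeq2, with 1745 of the risers and 2337 of the fallers among them.

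Whether the same transcripts differed by hour in leaves with earlier secretion was asked in PC, which shares no library with CC. PC and CC were tested in the same fit, with the same estimate of spread for each transcript, so calls in both are not independent. In PC at 6 h, 1267 transcripts were higher and 1986 lower than the mean of 1 and 24 h (2.21% of those tested). Of the 1897 CC risers, 1858 were also higher at 6 h in PC and 663 were called higher, against 0.859% called higher over all tested transcripts. Of the 2404 CC fallers, 2378 were lower in PC and 1271 were called lower, against 1.35% over all. Those shared calls were 34.9% of the CC risers and 52.3% of the PC risers, and 52.9% of the CC fallers and 64.0% of the PC fallers. Of both CC lists, 0 transcripts were called in the opposite direction in PC. The CC lists have higher levels than all tested transcripts, and the part of this in the shares here and below was not tested. The PC count of 3253 was 949, 1160 and 1593 without PC 6 h replicates 2, 3 and 1, and 1797 and 2052 without PC 24 h replicates 1 and 3. It was 5851 without CT 24 h replicate 1 and 6001 by DESeq2.

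Each list had a smaller median where it was read than where it was chosen. The CC risers had a median log2 fold change of 1.58 in CC itself and 1.05 in PC, and the CC fallers -1.54 in CC and -1.23 in PC. Read the other way, the PC risers had a median of 1.21 in CC, against 1.59 in PC itself, and the PC fallers -1.35 in CC, against -1.57 in PC. At 24 h against 1 h, 0 transcripts were called in PC by edgeR, with 8540 at a p of 0.05 or less before adjustment and 166 called by DESeq2. Without PC 1 h replicate 3 that count was 124, and without PC 1 h replicate 2 it was 2.

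The difference between CC and PC was tested itself. With edgeR, 0 of 147417 transcripts differed in their 6 h change between CC and PC (0%), while 3618 had a p of 0.05 or less before adjustment and DESeq2 called 30 (3 higher and 27 lower in CC). That 0 were called does not show that the hours act alike in both. For C208277 the difference, CC minus PC, was 0.39 ± 0.42 (SE) on the log2 scale, and for C453875 it was -0.05 ± 0.24. The largest among the named transcripts was that of C292183, at 1.34 ± 0.82. The smallest p among them was that of C289333, at -0.57 ± 0.28 (edgeR p of 0.0496 before adjustment), which did not pass after adjustment.

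In C, the untreated leaves of the priming set, 11659 transcripts were higher and 8507 lower at 6 h than the mean of 1 and 24 h, which is 15.9% of 126737 tested. The count in C was 11724 without C 6 h replicate 2 and 10140 without C 6 h replicate 3. This set was filtered, scaled and fitted on its own, so the counts of C and CC are not set against each other. Of the CC risers, 1720 were tested there, of which 1594 were higher at 6 h in C and 1153 were called higher, against 9.20% over all tested. Of the 2366 CC fallers tested, 2314 were lower and 1712 were called lower, against 6.71%. The shared calls were 60.8% of the CC risers and 9.89% of the C risers, and 71.2% of the CC fallers and 20.1% of the C fallers. In the opposite direction, 2 of the CC risers were called lower in C and 0 of the CC fallers higher.

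Median log2 fold changes in C were 1.34 for the CC risers and -1.32 for the CC fallers. As in CC and PC, 0 transcripts were called at 24 h against 1 h in C by edgeR, with 9163 at a p of 0.05 or less before adjustment. DESeq2 called 538 there, and edgeR 1 without C 24 h replicate 1.

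The C lists offer a reading of each CC library that does not rest on CC values. Of the transcripts called higher at 6 h in C, 11522 were tested in the triggering set, and their median log2 level relative to the mean of the 9 CC libraries was 0.16, 0.18 and 0.24 in the 6 h libraries. In the 1 h libraries it was -0.01, -0.09 and -0.12, and in the 24 h libraries -0.23, -0.02 and -0.12. The 6 h libraries lay above all others, and CC 1 h replicate 1 and CC 24 h replicate 2 came nearest to them. For the 8484 tested transcripts called lower in C, the medians were -0.20, -0.32 and -0.35 at 6 h, against 0.07, 0.14 and 0.15 at 1 h and 0.25, 0.03 and 0.24 at 24 h. CC 24 h replicate 2 was again the nearest to 6 h.

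**Figure D3:**
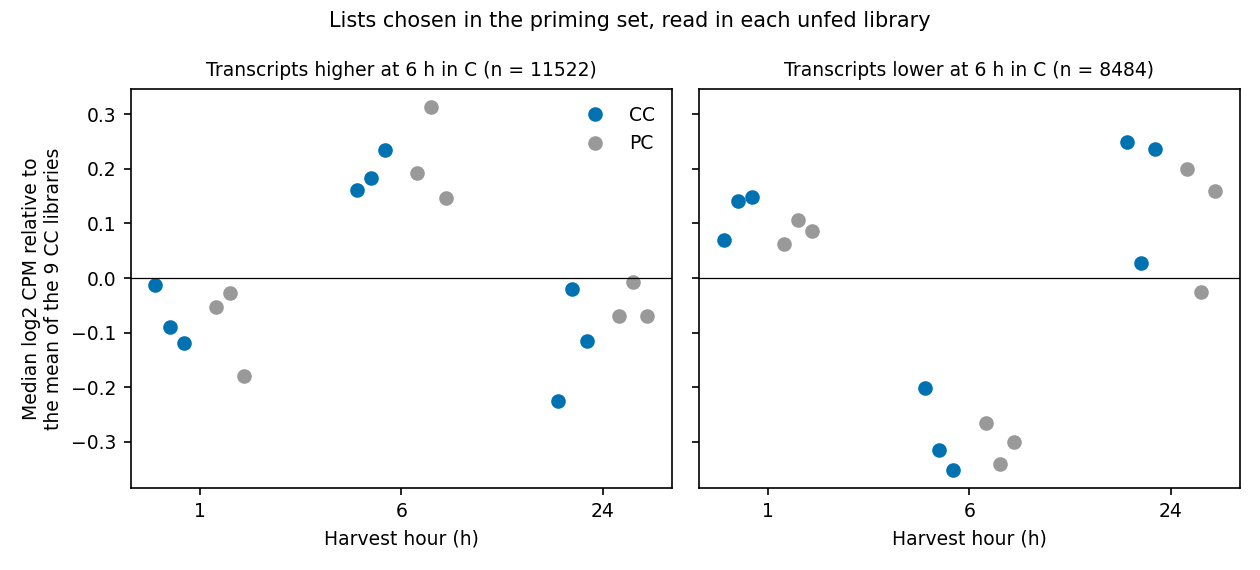
Median log2 CPM, relative to the mean of the 9 CC libraries (vertical), of transcripts called higher (left, 11522) or lower (right, 8484) at 6 h in C leaves, read in each CC (blue) and PC (grey) library at 1, 6 and 24 h (horizontal); 1 point per library. All CC libraries of 6 h lie at 0.16 or more on the left and at -0.20 or less on the right.

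In CC itself, 9952 of those 11522 were higher at 6 h, with a median log2 fold change of 0.45, and 1153 were called higher, against 1.29% over all tested. Of the 8484, 7477 were lower, with a median of -0.66, and 1712 were called lower, against 1.63%. The same lists had medians of 1.16 and -1.27 in C, where they were chosen. Opposite calls in CC numbered 0 among the first list and 2 among the second.

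Of the 8 transcripts named for 6 h, 7 were also called in C in the same direction. In C, 9.20% of all tested were called higher and 6.71% lower. The 8 were chosen in CC for a higher level and groups apart, so this count is a description. C292183 averaged 6.30 ± 1.49 CPM in C at 6 h, against 0.179 ± 0.113 at 1 h and 0.345 ± 0.0525 at 24 h (SD, 3 libraries each), close to its levels in CC, though the sets were scaled apart. scaffold4699 had 41.8 ± 10.0 CPM in C at 6 h, against 212 ± 18.6 at 1 h and 202 ± 58.9 at 24 h. The other, scaffold24834, had 65.7 ± 8.52 CPM in C at 6 h, against 56.8 ± 31.8 at 1 h and 53.3 ± 30.6 at 24 h, so its hours overlapped there. Its log2 fold change against the mean of both was 2.08 ± 0.28 (SE) in CC, 2.04 ± 0.28 in PC and 0.26 ± 0.42 in C, with edgeR adjusted p of 6.76e-05, 0.000129 and 0.746. The difference, CC minus C, was 1.83 ± 0.50, with an edgeR adjusted p of 0.205 in the fit of all 54 libraries, so it did not pass.

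Across all transcripts 35 differed in their 6 h change between CC and C in that fit, 17 with a higher and 18 with a lower value in CC, of 154357 tested. That is 0.0227% of those tested, and the median difference was 2.60 and -2.59 on the log2 scale. Of the 33 tested in both sets, 26 had opposite signs in CC and C, against 35.6% of the 124863 transcripts tested in both. Of those 26, only C488299 was called in both groups. Its log2 fold change was 1.03 in CC and -1.23 in C, with edgeR adjusted p of 0.0311 and 0.0336. In C 24 of the 35 were called by the hour, 17 higher and 7 lower at 6 h, where 15.9% of all tested were called. In CC 13 were called, where the share was 2.92%. The 35 were chosen on these same values for a large difference, which favours opposite signs and calls in 1 of the groups, so these counts are a description. The count of 35 was 0 without CC 6 h replicate 1 and 1 without C 6 h replicate 2, and it was 4 without CC 6 h replicate 3. It was 14 without C 6 h replicate 3 or C 1 h replicate 2, 16 without CC 24 h replicate 2, 17 without CC 6 h replicate 4, and 21 to 23 without any of CC 1 h replicates 1 and 2, C 6 h replicate 1 and C 24 h replicates 1 and 3. Without CC 1 h replicate 3 it was 58, and without CT 24 h replicate 1 it was 115, with all 35 among them. DESeq2 called 584 transcripts, with 16 of the 17 and 15 of the 18 among them.

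The values of 3 of the 35, chosen after their values were seen, are given here. For scaffold13645, the CC libraries had 7.35, 10.4 and 17.5 CPM at 6 h, against 9.82, 7.13 and 7.46 at 1 h and 4.44, 4.91 and 4.55 at 24 h. In C it had 80.4, 94.9 and 40.3 CPM at 6 h, against 8.73, 5.72 and 12.4 at 1 h and 6.91, 4.57 and 7.87 at 24 h. The C libraries of 6 h stood far above all others, while those of CC overlapped 1 h. It was called higher at 6 h than the mean of 1 and 24 h in both, with a log2 fold change of 0.95 in CC (edgeR adjusted p of 0.0411) and 3.27 in C (edgeR adjusted p of 3.08e-06). The difference, CC minus C, was -2.31 ± 0.40 (SE; edgeR adjusted p of 0.0154).

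The level of scaffold5811 was 16.5 ± 2.79 CPM in CC at 6 h, against 29.3 ± 6.4 at 1 h and 27.5 ± 7.95 at 24 h (SD, 3 libraries each). In C it was 119 ± 52.3 CPM at 6 h, against 29 ± 5.28 at 1 h and 40.7 ± 8.54 at 24 h. The 6 h mean was the lowest of the hours in CC and the highest in C. The log2 fold change against the mean of 1 and 24 h was -0.77 in CC, which did not pass (edgeR adjusted p of 0.147), and 1.82 in C (edgeR adjusted p of 0.00108).

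The level of scaffold17250 was 212, 228 and 208 CPM in CC at 6 h, against 173, 189 and 230 at 1 h and 183, 191 and 171 at 24 h. In C it was 75.3, 77.8 and 68.7 CPM at 6 h, against 178, 248 and 268 at 1 h and 145, 121 and 159 at 24 h. The 6 h libraries of C were low and apart, and those of CC overlapped 1 h (difference CC minus C 1.48 ± 0.26, SE; edgeR adjusted p of 0.0154).

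The same question was put to leaves with secretion, PC of the triggering set against P of the priming set, which share no library with CC or C. All 35 had the same sign of difference there, but the share of same signs over all tested transcripts was not computed. In that direction 5 were called, all of them among the 18 with a lower value in CC. There, 84 transcripts were called in all (0.0544% of those tested). CC minus C and PC minus P were tested in the same fit, with the same estimate of spread for each transcript. Calls in both are therefore not independent. The median difference, PC minus P, was 2.02 in the 17 and -1.83 in the 18. In PC at 6 h, scaffold13645 had 9.88 ± 2.96 CPM, against 36.8 ± 4.15 CPM in P at 6 h (SD, 3 libraries each). CC and PC leaves were taken a week later in the experiment than C and P leaves and belong to another set of libraries, so leaf age, day of harvest and set cannot be told apart.

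**Figure D4:**
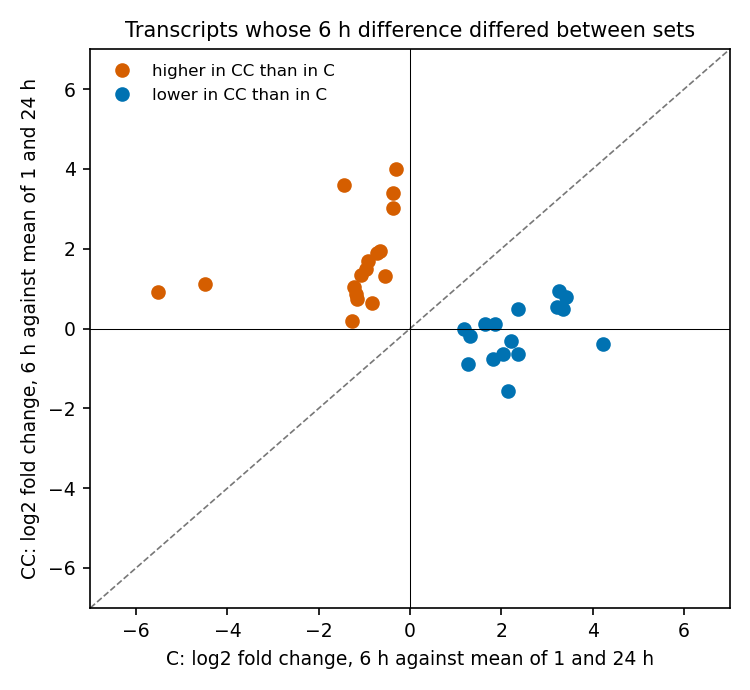
Log2 fold change of 6 h against the mean of 1 and 24 h in C (horizontal) and in CC (vertical) for the 33 transcripts tested in both sets out of 35 whose change differed between CC and C; the dashed line marks equal changes. The points in orange (higher in CC than in C) and in blue (lower in CC than in C) fall mostly in the quadrants of opposite sign, which hold 26 of the 33. Of those 26, only C488299 was called in both groups.

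The CC transcripts were also followed into fed leaves and into P. Against the mean of 1 and 24 h of the same treatment, the CC risers were called higher at 6 h in 845 cases in PT, 731 in CT and 1090 in P, where the backgrounds were 2.35%, 1.72% and 8.68%. The CC fallers were called lower in 1264 cases in PT, 792 in CT and 1682 in P, with backgrounds of 1.89%, 0.911% and 7.14%. In P only 1720 of the risers and 2366 of the fallers were tested. PT and CT were tested in the same fit as CC, with the same estimate of spread for each transcript. Calls in CC and in PT or CT are therefore not independent. Opposite calls in P were 11 risers lower and 2 fallers higher, and 0 in PT and CT. The medians of the risers and the fallers were 1.02 and -1.16 on the log2 scale in PT, 1.10 and -0.94 in CT, and 1.27 and -1.33 in P. The 24 h mean of CT holds CT 24 h replicate 1, and the median of this contrast over all tested transcripts was 0.08 in CT, against 0.02 in CC. Without that library, CT had 695 risers called higher and 1126 fallers called lower (1.67% and 1.55% of all tested), with medians of 1.03 and -1.02. PT then had 980 and 1526 (3.30% and 3.21% of all tested), with medians of 1.00 and -1.18. Every treatment of both sets had medians of the same sign as CC in both lists.

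**Figure D5:**
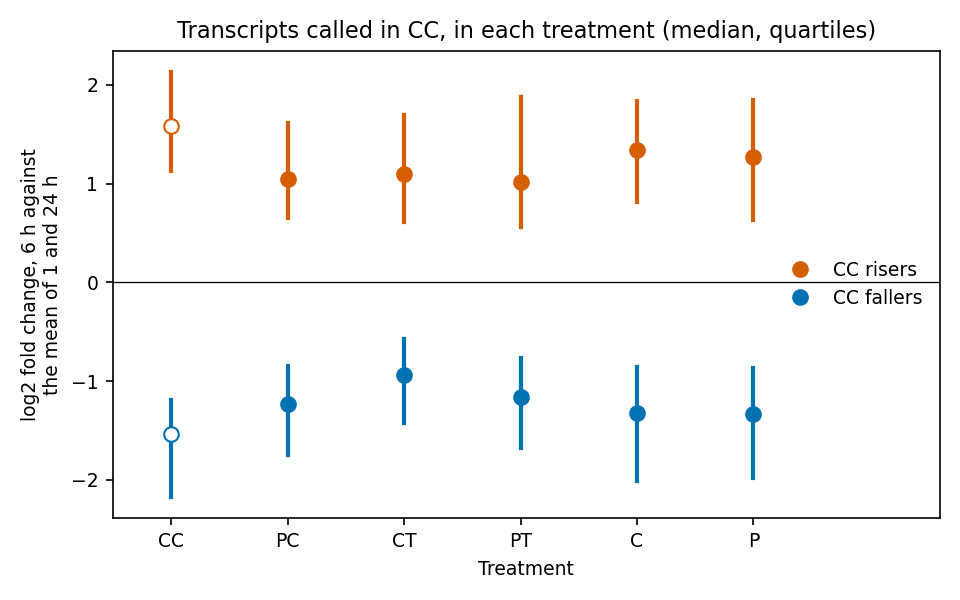
Median (points) and quartiles (bars) of the log2 fold change of 6 h against the mean of 1 and 24 h in each treatment (vertical), for the 1897 transcripts higher (orange) and the 2404 lower (blue) at 6 h in CC. Open points mark CC, where the lists were chosen; medians lie at 1.02 to 1.34 for the first list and -0.94 to -1.33 for the second in the other treatments.

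Feeding was set beside the hour by reading the CC lists in PT against PC, libraries that share none with CC. At 6 h, 26 CC risers (1.37%) were called higher and 1 lower in PT than in PC, against 1.09% and 0.108% of all tested. Of the CC fallers, 44 (1.83%) were higher and 3 lower in PT. At 24 h, 193 CC risers (10.2%) were called higher and 164 (8.65%) lower in PT than in PC, against 4.63% and 3.03% of all tested. Among the CC fallers 128 (5.32%) were higher and 118 (4.91%) lower. Over the whole list, called or not, 39.5% of the risers were higher in PT at 24 h, against 49% of all tested. Median log2 fold changes there were -0.27 in the risers and -0.06 in the fallers, against -0.01 over all tested. Without CT 24 h replicate 1, the called shares at 24 h were 12.7% and 11% of the CC risers and 7.45% and 7.36% of the CC fallers, against 6.08% and 4.72% of all tested. At 6 h, 2.00% of the risers and 2.54% of the fallers were then higher in PT, against 1.58% of all tested. The CC lists have higher mean levels than all tested transcripts, as given above, and the part of this in their shares was not tested. PT against PC was tested in the fit that gave the CC lists, with the same estimate of spread for each transcript. Its calls are therefore not independent of those lists.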

How the data were processed

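The deposited table holds the authors' raw counts of 237477 assembled sequences (216675 contigs and 20802 scaffolds), 1 column per library, and 0 columns were left out. Per the labels' protocols, frozen leaf tissue was extracted with phenol and polyadenylated RNA was made into TruSeq RNA v2 libraries. Per the submitters' processing notes, CASAVA and Trimmomatic 0.33 were used. The assembly, aligner, counting program and use of strand were not given in the sources used here. Reads of overlapping, antisense or near-identical sequences may thus be mixed, and a gene may lie in several sequences.

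The deposited counts were filtered with filterByExpr (minimum count 10, minimum total count 15), TMM-scaled and fitted in edgeR 4.0.16 (R 4.3.3; glmQLFit, glmQLFTest) with 1 mean per group. CC, PC, CT and PT were fitted over all 36 triggering libraries, C and P over the 18 priming libraries, and differences between sets over all 54. Adjusted p are Benjamini-Hochberg over all transcripts tested in a comparison, and calls have an adjusted p of at most 0.05. SEs are the log2 fold change over the square root of the F value. Principal components, rank correlations and list medians per library used log2(CPM + 0.5). Alternatives were DESeq2 1.42.0 and its size factors, other filters, fewer libraries, each library left out in turn, and a replicate block.

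The members, lists, tests and naming rule were chosen with earlier results of these data known. Named transcripts are up to 2 in each direction per comparison with the smallest p, among those whose groups did not overlap and whose log2 CPM averaged 1 or more. Gene lists by function could not be applied. Counts of the 9 pairs of CC libraries of 1 hour differed by a chi-square of at least 18.7 per degree of freedom, so none is a copy of another.

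On simulated counts with 50 changed transcripts per fold (147417 simulated, 140003 tested), CC 6 h against the mean of 1 and 24 h recovered 28.0% of 2-fold and 98.0% of 4-fold changes, with 7 false calls. For CC 6 h against 1 h the shares were 16.0% and 88.0%, with 5 false calls. Low-level transcripts were given no change in this simulation, and its spread followed level alone, not the single transcript. The shares and false calls therefore do not stand for all tested transcripts. Of the 147417 tested in CC, 74743 averaged under -1 on the log2 CPM scale.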

Additional observations from a re-analysis of the deposited data

Results flagged for a closer look

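A difference between groups led to a closer look at 1 result. The 6 h change of 35 transcripts differed between the untreated leaves of the triggering set (CC) and those of the priming set (C), by edgeR's test of the difference itself with Benjamini-Hochberg adjustment. The 35 held 17 with a higher and 18 with a lower change in CC, and 26 of the 33 tested in both sets had opposite signs, which the choice by a large difference favours (35.6% of all transcripts tested in both had opposite signs). Of those 26, only C488299 was called in both CC and C. The share of reads in the 10 leading sequences was 32.6% in CC 6 h replicate 1 and 32.7% in C 6 h replicate 1, the highest in either group. The count without CC 6 h replicate 1 was 0 and without C 6 h replicate 1 it was 22. It was 1 without C 6 h replicate 2 (share 12.4%) and 4 without CC 6 h replicate 3 (share 5.68%). Whether this share bears on the count was not tested. PC minus P, in other libraries of the same sets, had the same sign in 35 of 35, and the share over all tested transcripts was not computed.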

How the results depend on the processing

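All 8 named transcripts called against 1 h or 24 h kept their direction under each alternative run, and their calls too, except scaffold24834, whose log2 fold change against 24 h was 1.96 with a replicate block, with an edgeR adjusted p of 0.0732. C177847 (DESeq2, the CC-only fit and the filter at 1 CPM in 3 libraries) and C465567 (those and without CC 1 h replicate 3) passed at 24 h against 1 h. The causes of the moves below were not tested.

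By DESeq2, the counts were 6771 for CC 6 h against 1 h, 4175 against 24 h, 466 for 24 h against 1 h, 7495 for 6 h against the mean of 1 and 24 h, 6001 for PC against that mean, 166 and 538 for 24 h against 1 h in PC and C, 30 for CC minus PC and 584 for CC minus C. In the fit of CC alone they were 6200, 2658, 322 and 6863 for the 4 CC comparisons. In the fit of CC and PC they were 5797 and 3114 for CC 6 h against 1 h and 24 h, and 6766 and 5082 against the mean in CC and PC. The filter at 1 CPM in 3 libraries gave 2385 for CC 6 h against 24 h, 6 for 24 h against 1 h and 98 for CC minus C. Without CT 24 h replicate 1 the counts for CC 6 h were 6599 against 1 h, 3640 against 24 h and 7476 against the mean, and 5851 in PC, and CC minus C gave 115. That last fit, the reading of the CC lists in fed leaves without this library, and leaving out PC or C libraries in the differences were chosen after seeing the data. DESeq2 size factors in edgeR and dropping the filter moved no total by over 1.5 times. With no filter the higher calls fell to 816, 161 and 1169 for CC 6 h against 1 h, 24 h and the mean, against 1393, 348 and 1897 with it.

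Leaving out each library in turn gave 938 to 3544 for CC 6 h against 1 h, 267 to 2209 against 24 h, 0 to 3 for 24 h against 1 h and 1144 to 4906 against the mean. In PC the ranges were 949 to 4192 against the mean and 0 to 124 for 24 h against 1 h, and in C 10140 to 18222 and 0 to 1. CC minus PC stayed at 0 in 18 such fits, and CC minus C ranged over 0 to 58.

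Replicate numbers did not pair the libraries by the rule that every same-numbered pair correlates over 0.1 in its deviations from the group means. Such pairs had -0.211 and -0.0241 in CC for 6 h and 1 h, and 0 of 2 were over 0.1 for 6 h and 24 h. In C, 2 of 3 were over 0.1 for 6 h and 1 h (up to 0.323) and for 24 h and 1 h (up to 0.284), and in PC 2 of 3 for 6 h and 1 h (up to 0.259). With a replicate block, in which CC 6 h replicate 4 has no partner, the counts were 734, 135 and 706 for CC 6 h against 1 h, 24 h (13 higher and 122 lower) and the mean, 2090 for PC 6 h, 5 and 1 for 24 h against 1 h in PC and C, and 4 for CC minus C.

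A smaller share of the transcripts of low level was called, and 2-fold changes were mostly out of reach in simulated data.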
